A study of Mus musculus with 18 samples.

Results

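The comparison set mouse heart muscle 72 h after myocardial infarction (MI) against heart muscle 6 h after MI, by the regions of the genome where methylated DNA had been found. It used 6 of the 18 libraries of a methylated DNA immunoprecipitation sequencing (MeDIP-seq) series: the 3 libraries labelled 72 h and the 3 labelled 6 h, chosen by their labels alone. All mice were C57BL/6JR males aged 12 weeks. In the 6 h and 72 h groups the left anterior descending coronary artery had been tied under pentobarbital anaesthesia, with 3 mice in each group. The 12 other libraries came from mice taken 10 min, 1 h or 24 h after the tie and from sham-operated mice, 3 in each group, and they are used below only as a measure that the comparison did not draw on. Per the labels the source was myocardial tissue; cardiomyocytes are given as the cell type, although no step that separates cells is described and the zone of the ventricle is not stated.

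A coronary tie deprives the muscle downstream of oxygen, and its heart muscle cells die within hours. The early hours are the ischemic phase, when the dying tissue draws in neutrophils, and over the next days macrophages clear the debris while fibroblasts and new vessels begin the repair. DNA methylation in mammals sits mostly on cytosines followed by guanine (CpG). Starts of constantly active genes are usually free of it, while gene bodies and the spaces between genes usually carry it. In MeDIP-seq an antibody against methylated cytosine pulls down sheared DNA, so a peak marks a stretch where methylated fragments pile up and not the percentage of methylated molecules.

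The deposited data were a peak list for each library, with a score for each peak that was lowest at 50 in every list. Read counts were not used here, so the sequencing depth behind a list is unknown, and a peak missing from a list can be a methylated stretch that did not reach the threshold. In a tissue sample, a change in the mix of cells and a change of methylation within cells cannot be told apart. Of the windows from 2000 bases before to 500 bases after a transcript start, 18 of 19 at housekeeping genes had no peak in any of the 6 libraries. At germline genes, whose CpG-rich starts are known to be methylated in body tissues, 8 of 24 such windows had no peak and 3 had one in all 6 libraries. MeDIP-seq gives no expression, so the labelled cell type could not be checked by marker levels; a peak fell in or within 2000 bases of 7 of 8 cardiomyocyte marker genes, all but Tnni3, and of 5 of 8 macrophage and monocyte marker genes, beside 70.1% of all protein-coding genes.

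The 72 h lists were longer than the 6 h lists, although their ranges overlapped. They held 58992, 60653 and 48608 peaks at 72 h, and 43071, 50535 and 34255 at 6 h. Mean lengths were 56084 ± 6528 peaks at 72 h, 42620 ± 8149 at 6 h and 51287 ± 8068 in sham (SD, n = 3 libraries each). The difference of 13464 peaks did not pass a two-sided exact permutation test (p = 0.2), which with 3 libraries against 3 cannot go below 0.1. Peaks covered 57.3 ± 4.92 Mb at 72 h and 49.3 ± 7.63 Mb at 6 h (exact permutation p = 0.3). The median peak was 921 bases wide at 72 h and 1043 at 6 h (exact permutation p = 0.2), so the longer lists held narrower peaks. When each list was reduced to its 34255 top-scoring peaks, the length of the shortest list, the order of the covered lengths turned round and the 72 h lists covered 3.61 Mb less (difference -3.61 Mb, exact permutation p = 0.2). Counts of regions, starts, genes and windows called in each direction are therefore given below for all peaks and for these equal lists. Values of single genes and regions are from all peaks where no reading is named.

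A larger part of the 72 h peaks lay in protein-coding genes. Per library, 49.5%, 47.9% and 47.2% of the peaks overlapped a protein-coding gene at 72 h, against 45.8%, 46.1% and 44.9% at 6 h. Each 72 h library was above each 6 h library, and the means of 48.2% ± 1.18 and 45.6% ± 0.647 (SD, n = 3 each) stood on either side of the sham mean of 46.8%. The sham libraries were at 46.5%, 47.8% and 46.1%, so that sham replicate 2 exceeded 72 h replicate 3. The difference of 2.62 percentage points gave an exact permutation p of 0.1, the smallest possible here, and an adjusted p of 0.3 over the 7 measures tested per library. It was 1.41 points with equal lists and 3.73 points among peaks scoring at least 70, each with an exact permutation p of 0.1. The share of peaks near transcript starts hardly differed, at 4.43% ± 0.157 at 72 h and 4.29% ± 0.114 at 6 h (exact permutation p = 0.2).

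**Figure D1:**
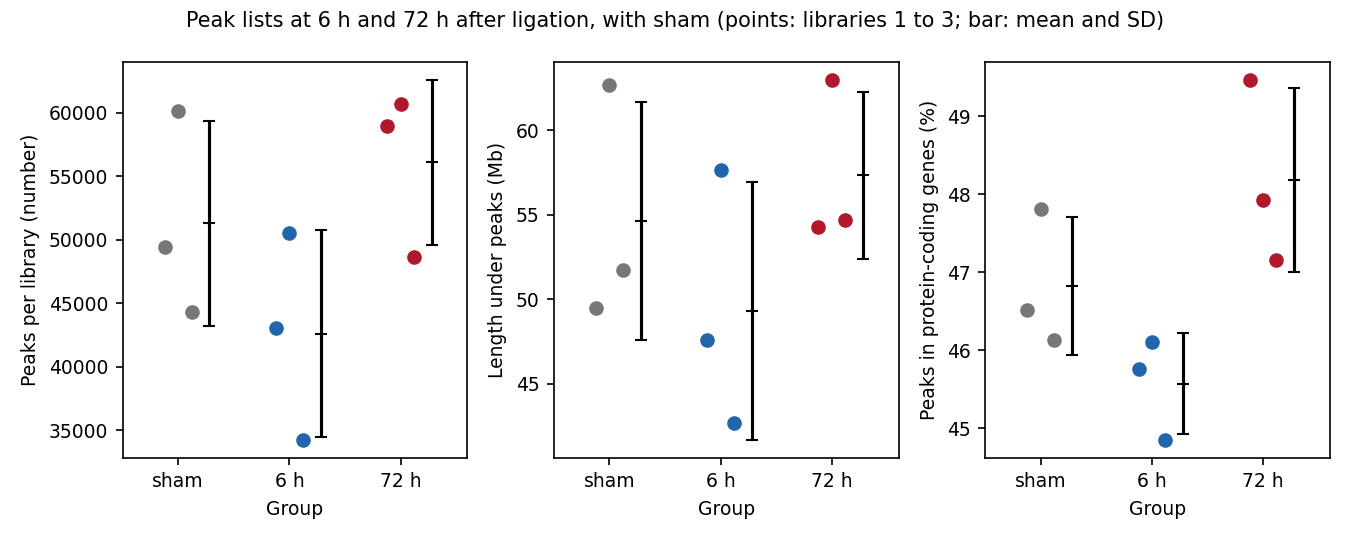
Peaks per library, megabases under peaks and percentage of peaks in protein-coding genes for the 3 sham, 3 MI 6 h and 3 MI 72 h libraries. Points are libraries and bars the mean with its SD; the axes do not start at 0. In the third panel the 72 h points lie between 47.2% and 49.5%, all above the 6 h points.

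Merging the 6 lists gave 112308 regions. A peak was present in all 6 libraries in 12809 of them (11.4%), and 28763 regions had a peak in a single 72 h library alone. A peak in all 3 libraries at 72 h and in none at 6 h was found in 1830 regions (1.63%), and the opposite in 359 (0.32%). With equal lists this imbalance was gone: 587 of 80362 regions were found at 72 h only (0.73%) and 596 at 6 h only (0.742%). Both readings agreed for 322 regions at 72 h, which are 17.6% of the 1830 and 54.9% of the 587. They agreed for 183 regions at 6 h, which are 51.0% of the 359 and 30.7% of the 596. A single region called 3 against 3 cannot pass a correction for multiple tests. Libraries of the same time were slightly more alike than libraries of different times: the Jaccard index, which divides the length shared by 2 libraries by the length that either covers, was higher by 0.0145 within than between times (one-sided exact permutation p = 0.2; 0.00851 and p = 0.1 with equal lists).

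**Figure D2:**
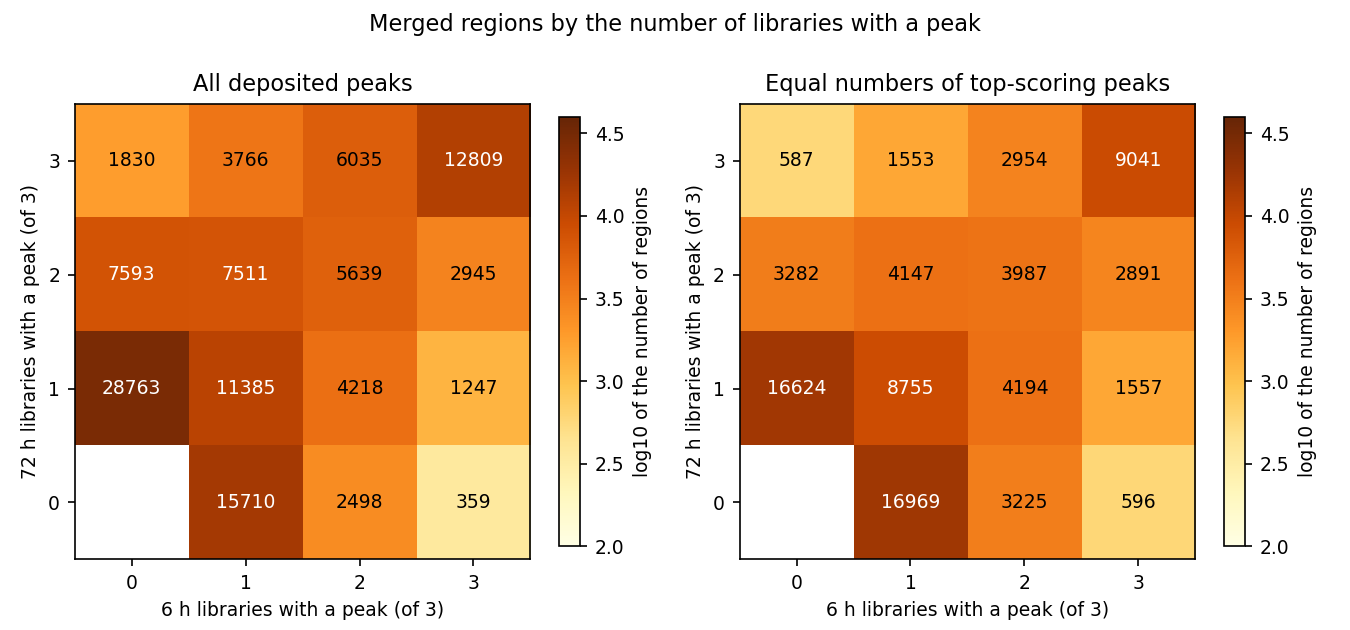
Number of merged regions by how many of the 3 libraries at 72 h (vertical axis) and at 6 h (horizontal axis) had a peak, for all peaks and for equal lists; the colour is the log10 of the number. The upper left and lower right corners hold the regions of 1 time only, 1830 and 359 with all peaks and 587 and 596 with equal lists.

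Regions found at 72 h only lay more often inside genes than those found at 6 h only. Of the 1830 regions found at 72 h only, 57.5% overlapped a protein-coding gene, against 45.1% of the 359 found at 6 h only and 49.4% of all regions. Among the regions that also held with equal lists the shares were 52.5% at 72 h and 41.0% at 6 h. Regions in all 6 libraries were less often genic, at 39.2%, and wider, with a median of 1632 bases against 1106 at 72 h only and 1152 at 6 h only. Chromosome 9 had the highest share of its regions found at 72 h only (2.06%) and the X chromosome the lowest (0.955%).

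Neither set of regions was private to its time. The median 72 h region had a peak in 4 of the 12 other libraries and the median 6 h region in 5, and 96 of the 1830 (5.25%) and 8 of the 359 (2.23%) had none there. In the 24 h libraries, 44.3%, 47.1% and 38.8% of the 72 h regions and 30.9%, 33.7% and 39.8% of the 6 h regions had a peak. Sham replicates differed more among themselves: 36.0%, 55.6% and 30.1% of the 72 h regions and 49.9%, 38.7% and 43.5% of the 6 h regions had a peak, beside 38.4%, 45.4% and 34.8% of all merged regions. In sham replicate 2, whose list of 60130 peaks was the longest of these 12, the 72 h regions were the more frequent set, and in the other two sham libraries the 6 h regions were. With the regions that held in equal lists, the 72 h set exceeded the 6 h set by 30.7, 22.9 and 4.04 percentage points at 24 h, by -2.62, 28.7 and -3.58 in sham, by 11.4, -3.99 and 10.3 at 10 min and by 9.29, 4.44 and -11.5 at 1 h. The 24 h group alone had all 3 libraries above 0 there, and its values overlapped those of sham. Group means were all above 0: 7.49 points in sham, 5.91 at 10 min, 0.756 at 1 h and 19.2 at 24 h. The sets that held in equal lists were not matched in score. Their median mean score was 87.07 for the 72 h regions and 74.97 for the 6 h regions. The part of this gap in score in the differences was not tested.

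**Figure D3:**
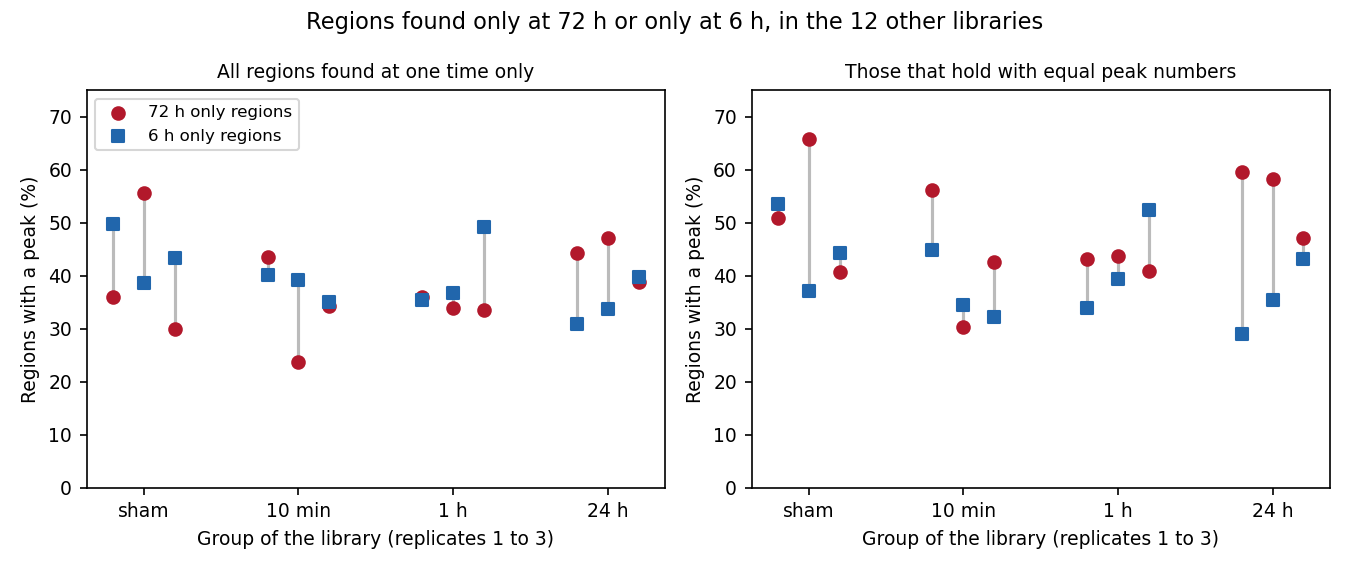
Percentage of the regions found at 72 h only (red circles) and at 6 h only (blue squares) that had a peak in each of the 12 libraries the calls did not use, for all such regions and for those that held with equal lists. Grey lines join the values of a library. In 24 h replicates 1 and 2 the circles lie above the squares in both panels.

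The highest-ranked regions found at 72 h only differed in how often they held a peak in the libraries of the other groups. Positions are those of the deposited lists, counted from 1, in build mm10. Regions were ranked by the lowest of their 3 scores among those that held with equal lists. In Capzb, which encodes a subunit of the protein that caps actin filaments, chr4:139238407-139239515 scored 135, 132 and 103 at 72 h and had no peak at 6 h. A peak was there in all 3 libraries at 24 h, in 0 of 3 sham libraries, in 1 at 10 min and in 0 at 1 h. In Ablim1, which encodes an actin-binding protein, chr19:57092030-57093197 scored 117, 116 and 105 at 72 h, with peaks in 3 of 3 libraries at 24 h and in 1 of 9 among sham, 10 min and 1 h. The region at chr19:3532467-3533737 in Ppp6r3, a regulatory subunit of protein phosphatase 6, scored 127, 190 and 102. Peaks were there in 3 of 3 sham, 1 h and 24 h libraries and 2 of 3 at 10 min, so the 6 h libraries were those without it.

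Others lay in Dennd3, a regulator of membrane traffic (chr15:73527459-73528390), in Rbms3, which encodes an RNA-binding protein (chr9:117080096-117081326), and in Lekr1 (chr3:65670812-65671726). The region with the highest minimum score, chr3:137814522-137815009, lay between genes, 49.5 kb from H2az1, and scored 114, 120 and 120. The last lay 11.2 kb from Timm8a2 at chr14:122049607-122050374.

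Of the 8 highest-ranked regions at 6 h, 2 lay in a protein-coding gene, against 6 of the 8 at 72 h. In Fbxw7, which encodes the substrate-binding part of a ubiquitin ligase, chr3:84870282-84870955 scored 122, 104 and 84.2 at 6 h and had no peak at 72 h. It was nearly private to 6 h, with a peak in 1 of the 12 other libraries (24 h replicate 3). In Klhl1, chr14:96157852-96158464 scored 88.5, 109 and 105. The region nearest to a repair gene lay 8.85 kb from Has2, an enzyme that makes the matrix sugar hyaluronan, at chr15:56703398-56704672, and scored 96.0, 95.3 and 119. It had peaks in 2 of 3 libraries of each of the other four groups. A further region overlapped the long noncoding RNA gene Gm41707 (chr18:39840397-39841042), and the remaining 4 lay outside protein-coding genes at chr4:30079606-30080851, chr11:111898515-111899170, chr11:41632101-41632976 and chr19:18562079-18562662.

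**Figure D4:**
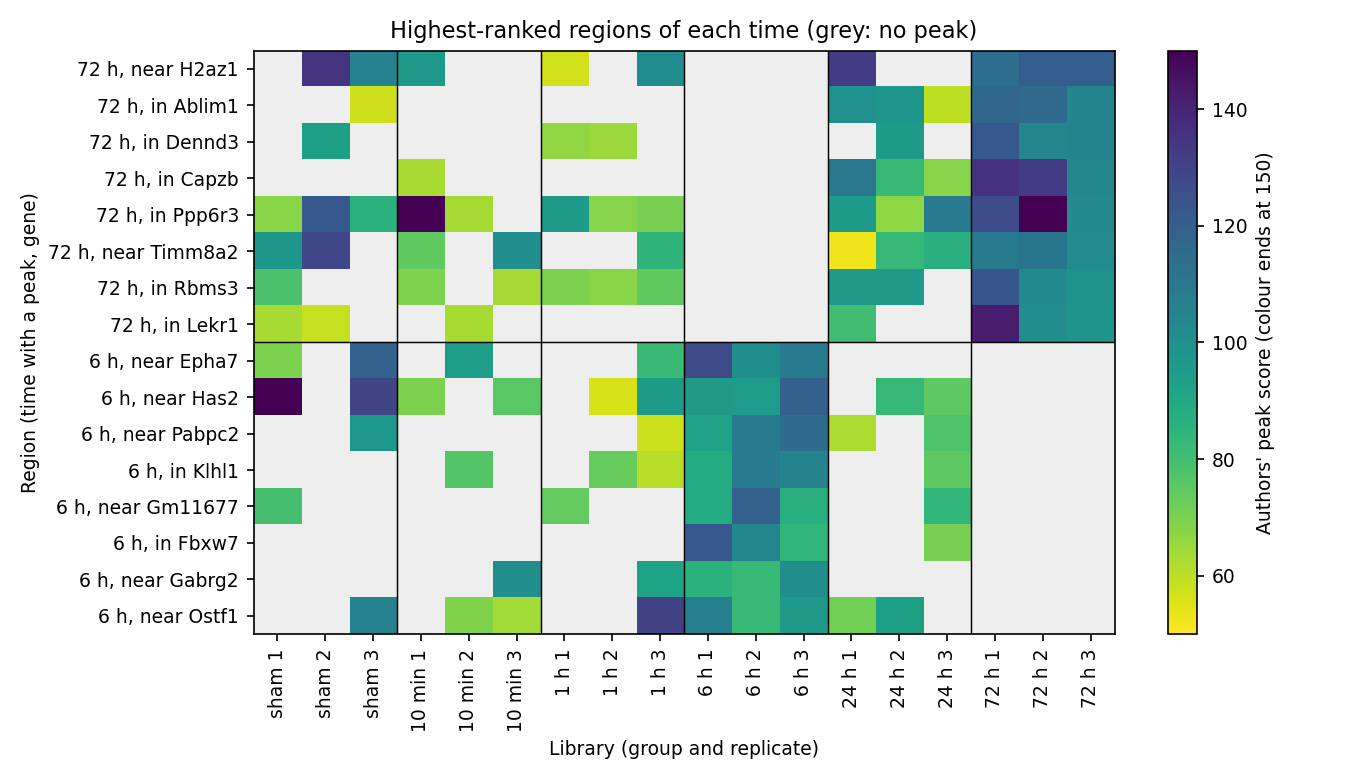
Score of the highest peak in each of the 16 highest-ranked regions (rows, named by the time with a peak and the gene they lie in or near) in all 18 libraries (columns); grey means no peak and the colour scale ends at 150. The blank blocks at 6 h (upper rows) and 72 h (lower rows) follow from how the regions were chosen. The Capzb and Ablim1 rows are filled in all 3 libraries at 24 h, and the Fbxw7 row in 1 of them.

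Peaks near transcript starts differed between the times at few genes. Of 32851 starts in the RefSeq promoter table, 27157 had no peak in the window from 2000 bases before to 500 bases after. A peak at 72 h only was found in 117 windows (0.356%) and at 6 h only in 13 (0.0396%), and with equal lists in 26 (0.0791%) and 32 (0.0974%). By the lowest of 3 scores, the windows found at 72 h only were led by Lkaaear1 (182, 124 and 150), Gm46900 (117, 98.4 and 104) and Ntan1 (105, 122 and 94.5), which encodes an enzyme of protein degradation. Next were Gm44867 and 8430430B14Rik, with lowest scores of 86.6 and 86.4. The windows found at 6 h only were led by Gm21304 (136, 82.7 and 70.1), Sipa1 (73.4, 96.2 and 69.6), Olfml2a (72.1, 67.4 and 71.8), Pramel43 (83.8, 104 and 65.4) and Smc1b, a meiotic cohesin subunit (65.2, 64.0 and 64.0). Of these 10, Olfml2a alone had a peak over the 300 bases around the start, in 1 library at 6 h.

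A peak over the start itself, from 250 bases before to 50 after, was found at 72 h only in 37 windows (0.113%) and at 6 h only in 7 (0.0213%). With equal lists 4 of the 37 and all 7 of the 7 held. The median number of CpG sites per 300 bases was 8 in the 37 windows and 5 in the 7, against 7 over all starts. Shown first are protein-coding starts that held with equal lists: Capn15, a calpain-type protease, and Tktl1, a transketolase-like gene, at 72 h, and Svs5, which encodes a seminal vesicle secretory protein, and Tulp2 at 6 h. The starts of Hspb3, a small heat shock protein of muscle, and Speg, a kinase of striated muscle, were chosen for their muscle role after their values were seen. Dazl, a germline gene, is shown because its start had a peak in all 6 libraries, as did that of Tex101. It does not stand for the germline list: the starts of Ddx4, with 38 CpG sites, Tdrkh and Zpbp2, among others, had no peak over these 300 bases in any of the 6. The sequences are RefSeq, build GRCm38.p6, on the strand of the gene from 5′ to 3′, with each CpG in capitals.
Capn15 (chr17:25965478-25965777, minus strand): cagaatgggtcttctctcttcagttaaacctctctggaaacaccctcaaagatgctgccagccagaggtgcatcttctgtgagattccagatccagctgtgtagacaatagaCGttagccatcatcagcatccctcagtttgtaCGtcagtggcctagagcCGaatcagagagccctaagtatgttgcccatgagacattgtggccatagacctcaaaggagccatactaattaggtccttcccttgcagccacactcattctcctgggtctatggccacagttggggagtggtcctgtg
Tktl1 (chrX:74177009-74177308, plus strand): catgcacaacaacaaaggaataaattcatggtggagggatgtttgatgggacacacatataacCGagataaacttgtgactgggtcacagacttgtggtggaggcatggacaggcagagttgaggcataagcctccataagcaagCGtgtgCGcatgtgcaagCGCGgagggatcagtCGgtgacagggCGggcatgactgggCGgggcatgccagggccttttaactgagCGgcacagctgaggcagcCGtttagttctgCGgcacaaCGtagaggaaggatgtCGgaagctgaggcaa
Hspb3 (chr13:113663627-113663926, minus strand): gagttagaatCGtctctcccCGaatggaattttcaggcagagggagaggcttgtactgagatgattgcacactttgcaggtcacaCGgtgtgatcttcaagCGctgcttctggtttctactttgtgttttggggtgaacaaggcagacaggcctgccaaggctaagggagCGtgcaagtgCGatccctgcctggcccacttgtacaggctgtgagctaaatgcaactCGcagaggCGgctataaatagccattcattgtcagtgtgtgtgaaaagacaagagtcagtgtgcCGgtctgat
Speg (chr1:75385360-75385659, plus strand): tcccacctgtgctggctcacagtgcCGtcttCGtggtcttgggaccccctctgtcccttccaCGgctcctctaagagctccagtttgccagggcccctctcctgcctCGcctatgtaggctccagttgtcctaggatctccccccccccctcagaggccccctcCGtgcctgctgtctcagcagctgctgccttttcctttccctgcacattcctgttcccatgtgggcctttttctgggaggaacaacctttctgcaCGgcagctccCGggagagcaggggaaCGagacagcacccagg
Svs5 (chr2:164332515-164332814, plus strand): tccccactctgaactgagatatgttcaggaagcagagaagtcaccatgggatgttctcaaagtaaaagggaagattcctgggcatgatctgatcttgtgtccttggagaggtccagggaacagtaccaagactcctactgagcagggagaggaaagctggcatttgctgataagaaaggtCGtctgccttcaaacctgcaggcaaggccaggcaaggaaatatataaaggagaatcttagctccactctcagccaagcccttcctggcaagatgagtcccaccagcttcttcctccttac
Tulp2 (chr7:45513456-45513755, plus strand): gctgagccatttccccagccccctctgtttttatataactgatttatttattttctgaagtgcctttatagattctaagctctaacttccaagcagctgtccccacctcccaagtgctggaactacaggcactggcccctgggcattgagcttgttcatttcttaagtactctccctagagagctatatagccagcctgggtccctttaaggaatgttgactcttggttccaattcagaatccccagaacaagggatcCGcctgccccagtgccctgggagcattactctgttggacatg
Dazl (chr17:50293571-50293870, minus strand): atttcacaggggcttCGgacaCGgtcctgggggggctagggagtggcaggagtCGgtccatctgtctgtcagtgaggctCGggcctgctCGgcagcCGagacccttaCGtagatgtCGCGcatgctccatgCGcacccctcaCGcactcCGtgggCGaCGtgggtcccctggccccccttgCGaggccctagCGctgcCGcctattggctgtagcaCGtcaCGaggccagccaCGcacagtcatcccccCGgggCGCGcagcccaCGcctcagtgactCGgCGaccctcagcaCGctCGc

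The Capn15 start holds 3 CpG sites and scored 93.5, 91.1 and 76.4 at 72 h, and the Tktl1 start holds 13 and scored 101, 77.0 and 69.0. Neither was particular to 72 h. Over Tktl1 a peak also stood in 3 of 3 libraries at each of 10 min, 1 h and 24 h, and in 1 of 3 in sham. Over Capn15 one stood in 2 of 3 libraries in each of sham, 10 min and 1 h, and in 1 of 3 at 24 h. The Hspb3 start, with 9 sites, scored 130, 54.4 and 66.5, and the Speg start, with 8 sites, scored 52.1, 66.6 and 89.7; neither had a peak at 6 h. With equal lists Hspb3 kept a peak in 2 and Speg in 1 of the 3 libraries at 72 h. At 24 h a peak stood over Hspb3 in 2 of 3 libraries and over Speg in none, and in sham over each of them in 1 of 3. The 6 h starts of Svs5 and Tulp2 hold 1 CpG site each, a number that 94.6% of all starts reach. The other protein-coding 6 h starts, not shown, hold more: Gm4064, which had the highest scores, 8, 4933428M09Rik 7, Abcg3 11 and Fam177b 3. Svs5 scored 94.9, 91.1 and 80.6 at 6 h and Tulp2 scored 104, 78.7 and 88.9. A peak also stood over Svs5 in 2 of 3 sham libraries and in 1 of 3 at 10 min. Over Tulp2 one stood in 1 of 3 at 10 min and in none of sham, and over neither at 1 h or 24 h. The Dazl start holds 28 sites, which 14.2% of starts reach, and scored 66.7, 115 and 65.7 at 6 h and 146, 84.8 and 104 at 72 h.

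Hairpins of microRNAs, the short RNAs that repress messages matching their seed (bases 2 to 8), gave 3 differences. Of 1005 hairpins in the RefSeq table, 132 overlapped a peak and 18 did so in all 6 libraries. Mir6927 and Mir6994 had a peak at 72 h only (2 of 1005, 0.199%) and Mir1981 at 6 h only (1 of 1005, 0.0995%). Their mature sequences are shown with the seed in capitals; no 2 of the 6 share a seed.
mmu-miR-6927-5p: gUGAGGGGauccagcccaggcu
mmu-miR-6927-3p: cCUGAGCUggcuccccugcag
mmu-miR-6994-5p: aCAAAGGUgggugaagccgguga
mmu-miR-6994-3p: aACGAUCUucuccgucuuugc
mmu-miR-1981-5p: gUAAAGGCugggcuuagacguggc
mmu-miR-1981-3p: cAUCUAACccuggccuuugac

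Mir6927 (chr11:97677060-97677130) scored 90.3, 51.8 and 52.6 at 72 h, and Mir6994 (chr19:11923728-11923800) scored 122, 50.8 and 56.2. Both kept a peak in only 1 library at 72 h with equal lists. Mir6994 also had a peak in 2 of 3 libraries in each of sham, 1 h and 24 h and in 3 of 3 at 10 min. The 6 h libraries were therefore the group without a peak at Mir6994. Mir6927 had one in 2 of 3 libraries at 10 min and in 0 of 3 in each of sham, 1 h and 24 h. Mir1981 (chr1:184822407-184822488) scored 65.4, 96.9 and 74.2 at 6 h, and peaks were there in 3 of 3 sham, 1 h and 24 h libraries and 2 of 3 at 10 min. The 72 h libraries were therefore the group without a peak at Mir1981. Peaks are wider than hairpins and do not resolve which base is methylated.

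Genes were compared over their span with 2000 bases on each side. Of 21887 protein-coding genes, 15338 had a peak in at least 1 of the 6 libraries and 5799 in all 6. A peak at 72 h only was found in 315 genes (1.44%) and at 6 h only in 18 (0.0822%), and with equal lists in 108 (0.493%) and 84 (0.384%). Of these, 48 and 15 held in both readings. Leaving out any single library, which asks for fewer libraries, gave 445 to 755 genes at 72 h and 49 to 90 at 6 h.

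At 72 h only, the highest-ranked genes held 1 or a few peaks each. Hoxa2, a homeobox gene of head and hindbrain patterning (chr6:52162417-52164831), had 1 peak in each library at 72 h, scoring 112, 83.5 and 93.6, and none in any of the 15 other libraries. Its neighbour Hoxa3 (chr6:52169059-52213067) had 3, 2 and 2 peaks at 72 h, none at 6 h and a peak in 1 of the 12 other libraries, although with equal lists 1 peak in 1 library was left. Rhoa, a small GTPase that controls actin tension (chr9:108306160-108337943), had 1, 2 and 1 peaks at 72 h and none at 6 h, with a peak in 3 of 3 sham and 3 of 3 libraries at 24 h. Hnrnpa1, which encodes an RNA-binding protein of splicing (chr15:103239943-103246698), had 1 peak per library at 72 h and none at 6 h, with a peak in 2 of 3 sham and 3 of 3 libraries at 24 h. The others were Ppp6r3, Gm46900, Klhl24, a ubiquitin ligase adaptor, Zfp189, Samd4b, Wfdc2 and Cpxm1.

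At 6 h only, the highest-ranked genes were Stxbp3, Rtn4, Gfral, Gm21304, Gimap9, Mycn, Fam241a, Trmt44, Slc12a9 and P4ha1. P4ha1, an enzyme that hydroxylates collagen (chr10:59323197-59373304), had 1 peak in each library at 6 h and none at 72 h. Sham libraries held 3, 3 and 0 peaks there, and those at 24 h held 1 each, so the 72 h libraries were the only group with none. Mycn, a growth-promoting transcription factor (chr12:12936093-12941836), had 1 peak in each library at 6 h and 2 of 3 sham libraries had one. Rtn4, which encodes the membrane protein Nogo (chr11:29692898-29744414), had 1 peak in each library at 6 h and also in 2 of 3 sham and 2 of 3 libraries at 24 h.

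Among the genes whose groups did not overlap in either reading, the gap in peak number was widest at titin. Ttn (chr2:76703980-76982557) encodes the spring protein that spans the sarcomere, the contractile unit of muscle. It held 16, 15 and 16 peaks at 72 h and 6, 7 and 6 at 6 h; with equal lists it held 11, 10 and 11 against 5, 5 and 6. The groups did not overlap in either reading. Sham libraries held 8, 15 and 8 peaks and those at 24 h held 14, 11 and 8, so that sham replicate 2, with its longer list, reached the number of 72 h replicate 2. Of the 28 merged regions across Ttn, 21 had a peak in more libraries at 72 h than at 6 h, 4 in fewer and 3 in as many, while a single region (chr2:76748210-76750516) was found at 72 h in all 3 and at 6 h in none. Ttn was chosen for its excess of peaks at 72 h in these same lists, so a leaning of its regions to 72 h follows from the choice. Peaks covered 6.68% to 9.35% of Ttn at 72 h and 2.61% to 3.20% at 6 h. In the 15 libraries other than 72 h the range was 2.56% to 5.98%, highest in 24 h replicate 2, so by this measure all 3 libraries at 72 h lay above the 15 others, sham replicate 2 included (5.89%).

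More peaks in every 72 h library than in every 6 h library were counted in 935 genes (4.27%) and fewer in 38 (0.174%), and with equal lists in 230 (1.05%) and 171 (0.781%). Both readings held for 117 and 21 genes. Genes with more peaks were long, with a median span of 53.4 kb against 17.2 kb over all protein-coding genes. The shares over all genes also count 6549 genes with no peak in any of the 6 libraries. The gene lists below are not matched to all genes in span or in having a peak. Synpo2, which encodes an actin-binding protein of the muscle Z-disc, held 8, 8 and 9 peaks at 72 h and 3, 2 and 3 at 6 h, while sham held 2, 3 and 2. Nek6, a cell division kinase, held 5, 6 and 5 against 2, 2 and 2, with 5, 5 and 1 in sham. Fam155a held 13, 14 and 12 against 8, 8 and 7, with 10, 15 and 10 in sham, and Tnik, a kinase, 7, 11 and 9 against 4, 3 and 3, with 4, 8 and 3 in sham. The sham values of Nek6, Fam155a and Tnik reached into the 72 h range, and those of Synpo2 stayed below it. In the other direction Tpd52 held 1, 1 and 2 peaks at 72 h, 3, 3 and 3 at 6 h and 4, 5 and 4 in sham. Dync1i2, a dynein subunit, had 1, 1 and 1 peaks at 6 h and 1, 1 and 2 in sham, with none at 72 h.

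**Figure D5:**
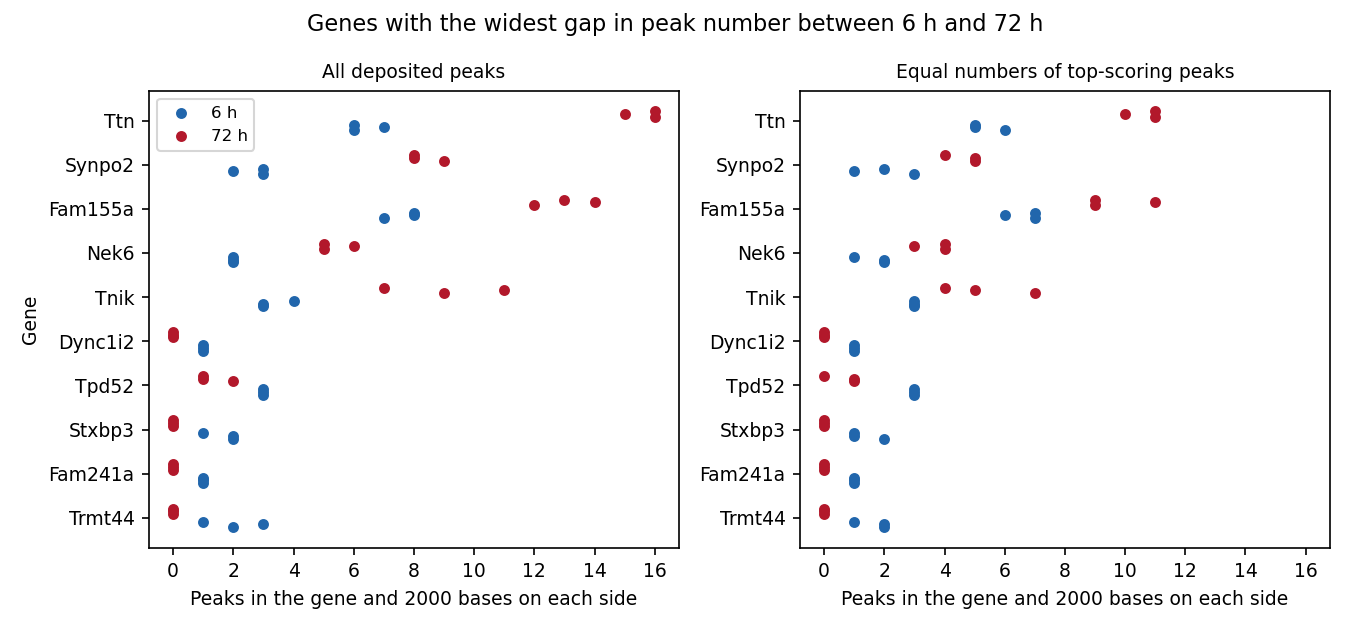
Number of peaks per library in the 5 genes with the widest gap in each direction, at 6 h (blue) and 72 h (red), for all peaks and equal lists; points of a group are spread vertically. The genes were chosen for groups that do not overlap. For Ttn the points lie at 6 to 7 and 15 to 16 with all peaks and at 5 to 6 and 10 to 11 with equal lists.

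A test across all genes called none of them. Limma was run on log2(bases under peaks + 500) for the 7391 genes with a mean of at least 1000 bases under peaks. At an adjusted p under 0.05 it called 0 genes (0%), and the lowest adjusted p was 0.466; 623 genes had an unadjusted p under 0.05, 576 higher at 72 h (7.79%) and 47 lower (0.636%). The median gene was higher at 72 h by 0.21 on the log2 scale, and this shift was 0.02 after scaling each library to the same total length under peaks and -0.07 with equal lists. The unadjusted counts followed it, with 341 higher (4.61%) and 150 lower (2.03%) of 7395 genes after scaling, and 125 higher (2.25%) and 242 lower (4.36%) of 5548 genes with equal lists. No gene passed in either of these fits.

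Ttn had the lowest unadjusted p of the limma fit over all genes. Peaks covered 18889, 26429 and 20706 bases of the gene at 72 h and 9037, 7570 and 7380 at 6 h. The log2 difference was 1.40 ± 0.20 (SE; limma adjusted p = 0.466). It was 1.25 with equal lists and 1.18 after scaling. Egln1, the oxygen-sensing enzyme that marks hypoxia-inducible factor for destruction (chr8:124908587-124949254), had 4367, 4763 and 4473 bases at 72 h and 961, 0 and 741 at 6 h. In peaks these were 4, 3 and 4 against 1, 0 and 1, with 2, 1 and 1 in sham and 1, 1 and 2 at 24 h. All 6 merged regions at Egln1 had a peak in more libraries at 72 h, a leaning tied to the choice of the gene by its low p in these same lists. Crtc3, a coactivator, had 5146, 2871 and 6583 bases at 72 h and 0, 0 and 974 at 6 h, and Kcng2, a potassium channel subunit, had 6219, 7428 and 3505 against 980, 1373 and 1166. The other six were Mta3, Arhgef1, Dst, Hoxa3, Bsn and Trappc12, each higher at 72 h with an adjusted p of 0.466. With equal lists the log2 difference of Dst, a giant cytoskeletal linker, was 0.19, against 0.88 with all peaks. In that reading Arhgef1 kept 0, 0 and 2274 bases at 72 h, and Mta3 kept 3112, 0 and 1755 against 0, 0 and 936. Crtc3 kept 3125, 2285 and 2778 bases at 72 h, and Kcng2 kept 5311, 6043 and 3505.

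Across windows of 1 Mb the same test called 20 of 2663 (0.751%), all higher at 72 h. The lowest adjusted p was at chr9:96000001-97000000, with a mean of 38480 bases under peaks at 72 h and 18820 at 6 h (log2 difference 1.09 ± 0.22 SE, limma adjusted p = 0.00185). That window holds Zbtb38, a reader of methylated DNA, with 5, 5 and 4 peaks at 72 h against 3, 2 and 1. Next were chr9:108000001-109000000, which holds Rhoa (0.95, adjusted p = 0.0214), chr14:25000001-26000000 (1.00), chr9:45000001-46000000 (0.90) and chr4:137000001-138000000 (0.89), the last 3 with a limma adjusted p of 0.0247. The 20 windows held a median of 22.5 protein-coding genes, against 5 over all windows tested. At an unadjusted p under 0.05, 363 windows were higher (13.6%) and 22 lower (0.826%). None was called with equal lists, where 23 were higher (0.867%) and 200 lower (7.54%) at an unadjusted p under 0.05. After scaling none was called either, with 186 higher (6.98%) and 211 lower (7.92%), and none among peaks scoring at least 70, with 384 higher and 3 lower. The calls also rested on single libraries: leaving out 6 h replicate 3 or 72 h replicate 1 gave 0, leaving out 6 h replicate 1 or 72 h replicate 2 gave 1, leaving out 72 h replicate 3 gave 6, and leaving out 6 h replicate 2 gave 284.

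Peaks covered more of the contractile genes at 72 h when all peaks were read, and with equal lists the groups overlapped. With all peaks they covered 3.68%, 5.06% and 3.48% of the summed span of 24 sarcomere genes at 72 h and 2.08%, 2.33% and 2.68% at 6 h, beside 2.35%, 3.54% and 2.17% in sham. The values at 72 h lay above those at 6 h, and sham replicate 2 lay within the 72 h range. With equal lists they were 2.39%, 2.90% and 2.36% at 72 h and 1.71%, 1.64% and 2.68% at 6 h, where 6 h replicate 3 exceeded 2 of the 3 libraries at 72 h. Over all protein-coding genes the means were 2.59% and 2.09% with all peaks and 1.60% and 1.68% with equal lists. The rise with all peaks was not particular to the contractile genes. Hypoxia and glycolysis genes had 3.98% to 4.92% at 72 h and 2.94% to 3.35% at 6 h. Genes of the methylation machinery had 3.06% to 3.66% and 2.23% to 2.76%. With equal lists the hypoxia and glycolysis values overlapped, at 2.09% to 3.56% at 72 h and 2.17% to 3.27% at 6 h. Those of the methylation machinery turned round without overlap, at 1.55% to 1.74% at 72 h and 1.82% to 2.23% at 6 h. More peaks in every 72 h library were counted in 4 of the 24 (16.7%, against 4.27% of all genes) and fewer in none: Ttn; Actn2, the Z-disc protein alpha-actinin, with 6, 4 and 5 against 2, 1 and 3; and, with none at 6 h, Tnnt2, cardiac troponin T, with 2, 2 and 2, and Csrp3, a muscle LIM protein, with 1, 2 and 1. Without Ttn the means were 3.23% at 72 h and 2.26% at 6 h and the values overlapped, at 2.61% to 4.08% and 1.82% to 2.70%. With equal lists and without Ttn the 72 h mean of 1.79% ± 0.0800 was below the 6 h mean of 1.93% ± 0.677 (SD, n = 3 each). With equal lists Ttn was the 1 gene of the list with more peaks, and Mybpc3, myosin-binding protein C, had fewer (0, 0 and 0 against 1, 1 and 2).

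Among genes of calcium handling and conduction, Cacna1c, the pore of the cardiac calcium channel, held 27, 21 and 15 peaks at 72 h against 13, 10 and 10 at 6 h. With equal lists it held 13, 11 and 9 against 9, 8 and 10, and the groups overlapped. Of 24 cardiac transcription factors, 5 had more peaks at 72 h (20.8%, against 4.27% of all genes) and none had fewer (against 0.174%): Gata4, Srf, Prdm16, Nfatc1 and Tead1. Gata4 had 1, 2 and 1 peaks at 72 h and none in any 6 h, sham or 24 h library, and Srf had 1 in each library at 72 h and none at 6 h. Prdm16 held 16, 10 and 9 against 8, 8 and 6, Nfatc1 held 6, 6 and 5 against 3, 4 and 3, and Tead1 held 6, 7 and 6 against 2, 3 and 5. With equal lists Mef2d alone of the 24 had more (4.17%, against 1.05% of all genes), with 1 in each library at 72 h and none at 6 h.

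In the lists of the tissue response the share of genes with more peaks at 72 h was 0% to 8.70%, around the 4.27% of all genes. Of 26 acute inflammation genes only Nfkb1, an NF-kappaB subunit, had more peaks at 72 h (3, 4 and 4 against 1, 2 and 1), and 13 of the 26 had no peak in any library. Peaks covered 2.55% to 2.82% of the leukocyte identity genes at 72 h and 1.80% to 2.48% at 6 h, without overlap, and 1.55% to 2.09% and 1.11% to 2.05% with equal lists, with overlap. Among 26 leukocyte identity genes 2 had more, Itgam (2, 2 and 2 against 0, 0 and 1) and Csf1r, the growth factor receptor of macrophages (2, 1 and 1 against none). With equal lists Csf1r had no peak in any of the 6 libraries. Of 38 matrix and repair genes 2 had more, Col4a2, a basement membrane collagen (4, 6 and 4 against 2, 2 and 2), and Tgfbr2, a receptor of transforming growth factor beta (6, 8 and 6 against 3, 5 and 4). Peaks covered 2.70% to 3.91% of this list at 72 h and 2.54% to 3.27% at 6 h. With equal lists the 72 h values lay below those at 6 h, at 1.59% to 2.09% and 2.12% to 2.55%. In the vessel list 2 of 23 had more, Flt1, a receptor of vascular endothelial growth factor (12, 10 and 7 against 6, 5 and 2), and Angpt2, a ligand of vessel remodelling. Angpt2 held 3, 3 and 3 against 1, 2 and 1, and 3, 2 and 2 against 1, 1 and 1 with equal lists. It was the 1 gene of the vessel list with more peaks at 72 h with equal lists. In the acute inflammation, leukocyte identity and matrix lists no gene had more in that reading. Of 22 cell death genes 0 differed in number without overlap (0%, against the same 4.27% of all genes).

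Of 26 genes of hypoxia and glycolysis, Egln1 alone had more peaks in both readings. That is 3.85% of the list, against 4.27% of all genes with all peaks and 1.05% with equal lists. Pfkl, a glycolytic enzyme, had fewer with equal lists (0, 0 and 0 against 1, 1 and 2), which is 3.85% against 0.781% of all genes. In the fatty acid oxidation list 2 of 20 genes had more with all peaks (10%, against 4.27%) and 1 had fewer with equal lists (5%, against 0.781%). Cpt1a, the enzyme of fatty acid entry into mitochondria, had 2, 2 and 1 peaks at 72 h and none at 6 h. Ppargc1b had 5, 6 and 5 against 4, 4 and 2, and its relative Ppargc1a, a regulator of mitochondrial genes, had fewer with equal lists (1, 2 and 2 against 5, 4 and 4). Among 21 genes of the methylation machinery 4 had more peaks at 72 h (against 4.27% of all genes): Dnmt3l, a cofactor of new methylation (1, 2 and 2 against none), Zbtb4 (2, 1 and 1 against none), Tet3, an enzyme that oxidises methylcytosine (2, 3 and 2 against 0, 1 and 1), and Zbtb38. None of the 4 kept this with equal lists.

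Of 17 imprinted genes found in the gene table, Igf2r, Grb10 and Gnas had more peaks at 72 h (17.6%, against 4.27% of all genes), and 2 of the 17 had more with equal lists (11.8%, against 1.05%). Igf2r, a receptor that clears insulin-like growth factor 2, held 5, 4 and 3 against 1, 1 and 1. Grb10, an inhibitor of insulin signalling expressed from 1 parental copy in many tissues, had 3, 2 and 1 peaks at 72 h and none at 6 h, and 3, 1 and 1 against none with equal lists. Gnas, which encodes the stimulatory G protein subunit, had 4, 3 and 4 against 2, 2 and 0, and 2, 2 and 3 against 1, 1 and 0 with equal lists. Sgce had fewer with equal lists, with 1, 2 and 1 against 3, 3 and 4 (5.88% of the list, against 0.781% of all genes). Across the 14 lists, no gene had fewer peaks at 72 h with all peaks, where the share over all genes was also small, at 0.174%. Among 22 housekeeping genes Gpi1 had more (2, 3 and 2 against 1, 1 and 1), which is 4.55% against 4.27% of all genes. With equal lists none of the 22 had more.

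The marker genes of cell types were read the same way. Peaks covered 0.806% to 2.36% of 8 cardiomyocyte markers at 72 h and 0.633% to 1.10% at 6 h, ranges that overlap. For 8 macrophage and monocyte markers the ranges were 1.35% to 1.81% at 72 h and 0.956% to 1.12% at 6 h, and with equal lists 0.253% to 0.831% and 0.155% to 1.12%. The 5 neutrophil markers gave 1.17% to 2.08% at 72 h and 1.92% to 3.18% at 6 h, all of it in Cxcr2, as S100a8, S100a9, Csf3r and Ly6g had no peak. Fibroblast (2.21% to 4.77% and 2.95% to 3.96%), endothelial (2.56% to 4.44% and 2.35% to 3.73%) and T and B cell markers (3.40% to 4.67% and 2.13% to 4.92%) overlapped between 72 h and 6 h. The part of the mix of cells in the differences above was not tested.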

How the data were processed

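Peak lists of 6 MeDIP-seq libraries, 3 at 72 h and 3 at 6 h after MI, were compared, and the 12 other lists were read as a description. The authors deposited for each library a list of peaks with position and score; the scale of the score is not given in the sources used here. Per the submitters' processing notes, Bowtie2, MACS2 and build mm10 were used; their versions, options and any input control are not given in the sources used here. Peaks were called per library. The gene, promoter and miRNA tables were RefSeq GRCm38.p6. The share of 100-base windows with a peak was 5.79% at transcript starts, 7.40% at 5000 and 7.80% at 10000 bases away. The promoter table is not complete, and exons and introns were not analysed here.

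Lists were merged on an overlap of at least 1 base with Python 3.11.15 scripts. Genes were taken with 2000 bases on each side. Equal lists held the 34255 top-scoring peaks of each library. Single values per library were compared with two-sided exact permutation tests over 20 assignments, and the Jaccard index with a one-sided one. Length under peaks was tested with limma 3.58.1 (trend) on log2(bases + 500), with Benjamini-Hochberg adjustment at 0.05. Calls and limma were tested on simulated data. Named regions are the 8 of each time with the highest minimum score, named genes the 10 of each time ranked so and the 5 with the widest gap in peak number, all of which held with equal lists; also named are the 5 top promoters, the 10 genes and 5 windows with the lowest limma p and each list member whose groups did not overlap. The comparison, the members and the 14 gene lists were chosen with earlier results of these data known. Alternatives were equal lists, a score of at least 70, each library left out, a replicate block, other overlap, merging, flank, pseudocount and filter settings; scaling to 1 length under peaks, the 300-base window, the sarcomere list without Ttn and each sham library left out were added after seeing the data, as were the share of peaks in genes and the counts of genes with more or fewer peaks, under all their settings. Some members of the list of calcium handling and conduction genes are not reported here.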

Additional observations from a re-analysis of the deposited data

Results flagged for a closer look

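The share of peaks in protein-coding genes and the share of the sarcomere genes under peaks lay on opposite sides of the sham mean in the 2 groups: in both measures the 3 values at 72 h exceeded the mean of sham and the 3 values at 6 h fell short of it. The share of peaks in protein-coding genes was 48.2% at 72 h, 45.6% at 6 h and 46.8% in sham, which puts 72 h above 6 h by 2.62 percentage points. For the sarcomere list the length under peaks was 4.08% of the span at 72 h, 2.36% at 6 h and 2.69% in sham, so that 72 h exceeded 6 h by 1.71 points. The 3 sham libraries were at 2.35%, 3.54% and 2.17%, so that sham replicate 2 exceeded 72 h replicate 3 (3.48%) and 6 h replicate 3 (2.68%) lay almost at the sham mean. Without sham replicate 2 the sham mean of the sarcomere list was 2.26%, and 1 of the 3 values at 6 h was below it. For the share of peaks in genes, the sham mean without sham replicate 3 was 47.2%, and 2 of the 3 values at 72 h were above it. Both comparisons share the same 3 sham libraries, and the difference between the 2 departures from sham was not tested. Without Ttn the sarcomere values were 3.23% at 72 h, 2.26% at 6 h and 2.38% in sham.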

How the results depend on the processing

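With equal lists the difference in covered length turned to -3.61 Mb, and the counts became 587 and 596 regions, 108 and 84 genes with a peak at 72 h only and at 6 h only, 230 and 171 genes with more and fewer peaks at 72 h, and 0 windows of 1 Mb. Equal lists hold fewer peaks of the longer libraries by construction. Among peaks scoring at least 70 the counts were 1087 and 144 regions, 622 and 24 genes with more and fewer peaks, and 0 windows; after scaling to 1 length under peaks there were 0 windows. The cause of these changes in the window calls was not tested.

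Leaving out 1 library at a time asks for all against none of fewer libraries, so counts rise by construction: 2554 to 5711 and 689 to 1559 regions, 445 to 755 and 49 to 90 genes at 72 h only and 6 h only, and 1174 to 2322 and 94 to 214 genes with more and fewer peaks. The windows ranged from 0 to 284. The gene share difference stayed between 1.97 and 3.13 points and the peak number difference between 9281 and 17421.

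Whether the replicate numbers of the labels pair the libraries was not settled. Same-numbered libraries correlated at -0.0108, -0.00906 and -0.00201 in their deviations from the group means. List length, however, fell in the same order at 72 h, at 6 h and in sham: replicate 2, then 1, then 3. The groups at 10 min, 1 h and 24 h had other orders. With the replicate numbers as a block, the counts were 1850 and 84 genes with more and fewer peaks and 268 windows of 1 Mb, 267 of them higher. Limma called 0 genes with this block. A sign-flip test over 3 pairs cannot go below 0.25. An overlap of 50% of the region, merging across 500 bases, no flank, a pseudocount of 2000 bases and no filter kept each count within 1.5 times. Unknown depth limits all absences of a peak.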
